A study of Mus musculus with 4 samples.

Results

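The 10 circadian clock genes described here were counted in nuclei of mouse liver and are given by library, by hepatocyte zone and by cell type. They were chosen by name from the 32287 features counted, and 5 of them, Arntl, Npas2, Clock, Cry1 and Nfil3, are called Arntl-phase members below, while the other 5, Dbp, Tef, Per2, Per3 and Nr1d1, are called Dbp-phase members. Frozen livers of Bl/6 mice were used for single-nucleus RNA sequencing, with 1 library in each of 4 groups. The labels give CD, which in the study stands for a chow diet, or LPD, which stands for a low-protein diet. They also give control or oncogene, for the plasmids. These were injected hydrodynamically into the tail vein together with the Sleeping Beauty transposase (SB-HTVI). The diet was fed for 1 week before the injection and for 2 weeks after it. According to the study's methods the oncogene plasmids expressed c-MET and an activated β-catenin, the control was the vector, and injection of this kind reaches hepatocytes. The number of mice behind each library, their age and the hour at which each liver was taken were not given for single libraries. The methods state in general terms that tumour studies used young adult males. They add that, unless specified otherwise, mice were handled at about the same set hour of the afternoon after a fast of set length. The stated purpose was to keep circadian rhythm and feeding from affecting the results. With 1 library in each group, the library, the diet, the plasmid and the hour cannot be told apart, so no group was tested against another, and the intervals below are 95% intervals for counting error alone.

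The clock of a mammalian cell is a loop of transcription factors. BMAL1, the product of Arntl, pairs with CLOCK or NPAS2 and activates genes that carry E-boxes, among them the Per and Cry genes, Nr1d1, Dbp and Tef. PER and CRY proteins inhibit this pair, and the nuclear receptor REV-ERBα, the product of Nr1d1, represses Arntl, Npas2, Nfil3 and Cry1 through response elements that it shares with the ROR receptors (ROREs). In liver the Arntl-phase and Dbp-phase genes therefore peak at opposite times of day, and DBP and TEF activate, while NFIL3 represses, genes with a D-box.

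The sequences that link the members are shown first. RefSeq start sites on GRCm38.p6 were matched for 9 members, all but Per2, and windows from 250 bases before to 50 bases after each start were searched on both strands for CACGTG (E-box), CACGTT (E'-box), TTATGTAA or TTACGTAA (D-box) and AANTN directly followed by GGTCA (RORE). Matches were present for 5 members. Of 32851 promoter windows of this length, 7.15% held the E-box, 4.68% the E'-box, 1.06% a D-box and 0.606% the RORE. No matches printed here overlap each other, and a match says only that these letters were in the window. Capitals mark the matched letters, each sequence is written 5′ to 3′ on the strand of its gene, and the Arntl site and the first Tef site, which lie in annotated exons, are cut to 30 bases.
Arntl, RORE, chr7:113207528-113207557, plus strand: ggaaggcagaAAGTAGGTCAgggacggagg
Cry1, E'-box and E-box, chr10:85185065-85185158, minus strand: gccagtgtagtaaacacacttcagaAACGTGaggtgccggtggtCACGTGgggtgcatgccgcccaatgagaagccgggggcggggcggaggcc
Tef, E-box at the first start site, chr15:81802534-81802563, plus strand: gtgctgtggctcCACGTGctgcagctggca
Tef, E-box at the other start site, chr15:81811216-81811341, plus strand: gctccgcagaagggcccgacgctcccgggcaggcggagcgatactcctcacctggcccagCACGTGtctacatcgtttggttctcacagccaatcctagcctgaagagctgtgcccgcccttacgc
Per3, 2 D-boxes, chr4:151044803-151044915, minus strand: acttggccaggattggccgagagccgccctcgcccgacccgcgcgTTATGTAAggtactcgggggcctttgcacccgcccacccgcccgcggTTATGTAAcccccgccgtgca
Nr1d1, E'-box, chr11:98775340-98775465, minus strand: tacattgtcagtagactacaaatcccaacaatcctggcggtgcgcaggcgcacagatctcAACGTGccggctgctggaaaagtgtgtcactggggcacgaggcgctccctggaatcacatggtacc
The Arntl site carries the element through which REV-ERBα and the RORs act, and the Per3 window carries 2 copies of the element read by DBP and TEF. In the GENCODE annotation of GRCm38, 7 of the 10 genes overlap another annotated gene, 3 on the same strand and 5 on the opposite one. Per3, on chromosome 4 from 151003652 to 151044665, overlaps Camta1 on its own strand, so that reads in the shared stretch could belong to either gene. Nr1d1, on chromosome 11 from 98767932 to 98775333, overlaps Thra on the opposite strand only.

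The labels were checked with the human transgenes before any direction was read. The library labelled CD control held 100 UMIs (unique molecular identifiers, each standing for 1 captured RNA molecule) of human c-MET and CTNNB1, and the library labelled CD oncogene held 0. The library labelled LPD oncogene held 6 and the library labelled LPD control held 0. The CD labels therefore went against the transgenes. The study also describes the CD vector library as the one with more nuclei of the CD pair. In the files the library labelled CD oncogene held 13014 barcodes and the one labelled CD control 11063, so every library is named below by its label only. The 4 libraries held 9826 to 13014 barcodes and from 23172463 to 62869348 UMIs. Where 4 values stand in a row here and below, CD comes before LPD and, within a diet, control before oncogene. The libraries had medians of 3807, 3294, 1962 and 1762 UMIs per nucleus kept and of 2.42%, 0.983%, 0.100% and 0.127% mitochondrial UMIs. Depth and mitochondrial share thus moved with the diet label, and their part in the differences between diets was not tested.

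Hepatocyte-like nuclei were those with at least 1000 UMIs and at most 1 marker of each other cell type, which left 6370, 7886, 7071 and 6096 nuclei in the same order of libraries. No hepatocyte marker was required, so this set is defined by depth and by few markers of other types. Levels are CPM, the UMIs of a gene summed over these nuclei and scaled to the sum of all mouse-gene UMIs in them, so they are comparable between libraries for 1 gene and not between genes.

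In hepatocyte-like nuclei the 2 arms of the clock ran in opposite orders across the libraries. All 5 Dbp-phase members were highest in the library labelled LPD control and lowest in that labelled CD oncogene, with that labelled LPD oncogene above that labelled CD control. Arntl, Npas2 and Clock had exactly the reverse order. Cry1 and Nfil3 had orders of their own. Of 14717 genes with at least 50 UMIs over the 4 libraries, 3.83% had the order of Arntl and 13.4% the reverse order, beside 2 of the 4 Arntl-phase members other than Arntl and all 5 Dbp-phase members. The library labelled CD oncogene lay at least 2-fold above every other library for Arntl, Npas2 and Nfil3, as it did for 1.44% of genes, and at least 2-fold below every other library for Dbp, Tef, Per3 and Nr1d1, as it did for 1.47% of genes.

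**Figure D1:**
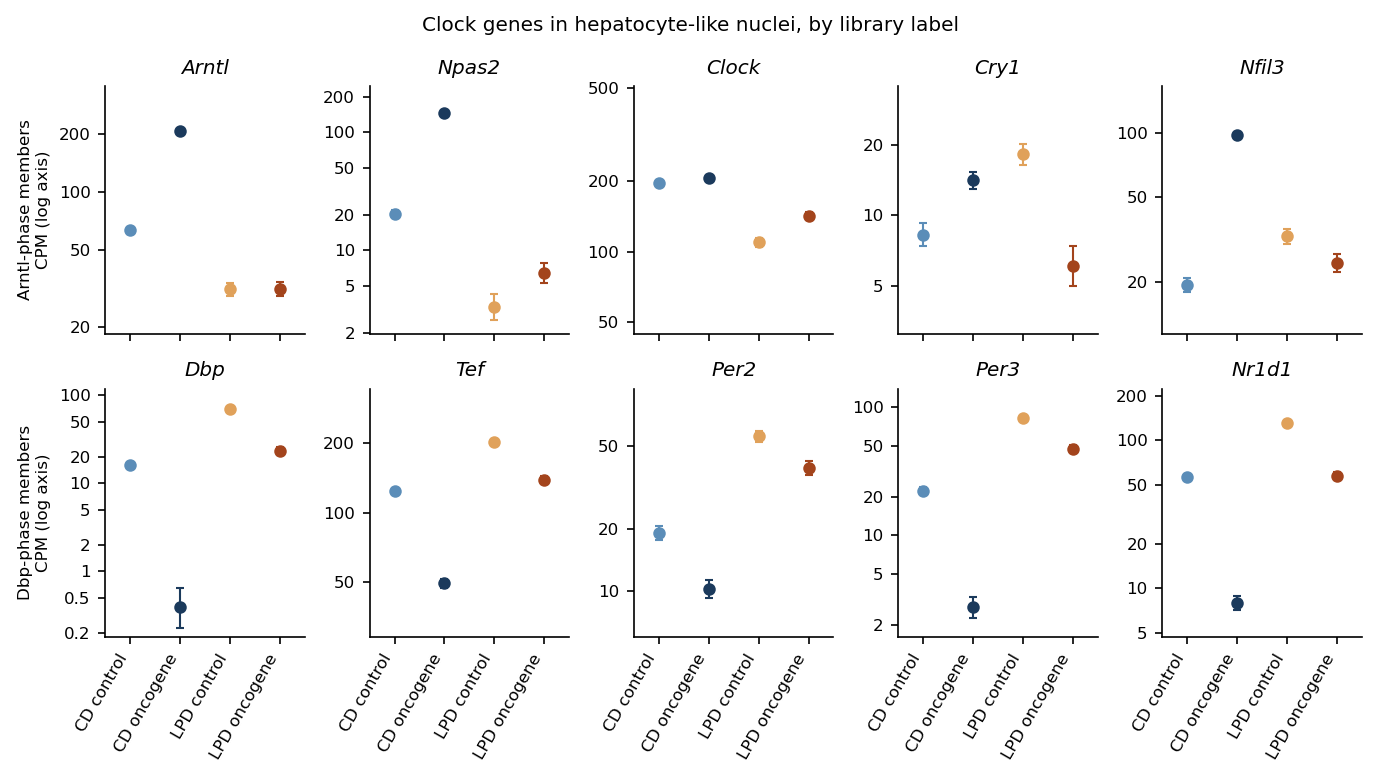
Level of each clock gene in hepatocyte-like nuclei, in CPM on a log axis, for the 4 libraries by label; points are summed UMIs and bars 95% counting intervals, often smaller than the point. Every Dbp-phase gene in the lower row has its lowest point in CD oncogene and its highest in LPD control, and Arntl, Npas2 and Nfil3 have their highest in CD oncogene.

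Among the activators, Arntl was at 63.5 CPM (60.9 to 66.1) in the library labelled CD control, 209 CPM (204 to 213) in CD oncogene, 31.4 CPM (29.0 to 34.0) in LPD control and 31.7 CPM (29.1 to 34.5) in LPD oncogene. The last 2 did not differ beyond counting error, while the other neighbours in the order were separated. Npas2, which can take the place of CLOCK beside BMAL1, was at 20.3, 146, 3.32 and 6.49 CPM in the same order, a 44.0-fold range with all 4 intervals separate. Clock itself had the narrowest range of the 10, 1.90-fold, with 197 CPM in CD control, 208 CPM in CD oncogene, 109 CPM in LPD control and 142 CPM in LPD oncogene.

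The other Arntl-phase members were both repressors. Nfil3, which competes with DBP and TEF at D-boxes, was at 19.5 CPM in CD control, 97.4 CPM in CD oncogene, 32.9 CPM in LPD control and 24.5 CPM in LPD oncogene. Like Arntl it was highest in CD oncogene, but its lowest library was CD control. Cry1, the partner of the PER proteins in repression, was at 8.28, 14.1, 18.3 and 6.08 CPM in the same order of libraries. It was the only Arntl-phase member that was highest in LPD control, and its 4 intervals did not overlap.

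Among the direct outputs, Dbp had the widest range of the 10. It was at 16.3 CPM (597 UMIs) in CD control, 0.396 CPM (16 UMIs, 0.226 to 0.643) in CD oncogene, 70.1 CPM (1353 UMIs) in LPD control and 23.3 CPM (398 UMIs) in LPD oncogene, a 177-fold range whose lower end rests on those 16 UMIs. Tef, its relative among the PAR bZIP factors, covered only 4.05-fold, with 124, 49.7, 201 and 138 CPM. All neighbours were separated for both genes.

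The repressors of the Dbp phase followed the same order. Per2 was at 19.1, 10.3, 55.7 and 39.2 CPM, and Per3 at 22.2, 2.75, 82.1 and 46.98 CPM in the same order of libraries. Nr1d1 was at 56.3, 7.97, 132 and 57.1 CPM. The levels of Nr1d1 in CD control and LPD oncogene did not differ beyond counting error, and all other neighbours of these 3 genes were separated.

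In the diet pairs of equal plasmid label, every Dbp-phase member was higher on LPD. In LPD control over CD control, 4 of the 5 Dbp-phase members were at least 2-fold higher, Dbp 4.30-fold, Per3 3.69-fold, Per2 2.91-fold and Nr1d1 2.34-fold, and Tef was 1.63-fold higher. Among the Arntl-phase members of that pair, Npas2 and Arntl were at least 2-fold lower, at 0.163 and 0.495 of the CD control level, and Cry1 was 2.21-fold higher. In all, 5 of 10 members were at least 2-fold higher and 2 at least 2-fold lower, where 9.39% and 10.1% of 13313 genes were. In LPD oncogene over CD oncogene, all 5 Dbp-phase members were at least 2-fold higher, from 2.78-fold for Tef to 58.7-fold for Dbp, and 4 Arntl-phase members, all but Clock, were at least 2-fold lower, against 13% and 8.08% of genes.

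Because the transgenes went against the CD labels, the 2 crossed pairs were also formed. In LPD control over CD oncogene, both without transgene UMIs, 5 members were at least 2-fold higher and 3 at least 2-fold lower, against 12.2% and 8.51% of genes. In LPD oncogene over CD control, both with transgene UMIs, 2 were at least 2-fold higher, Per2 at 2.05-fold and Per3 at 2.11-fold, and 2 were at least 2-fold lower, Npas2 and Arntl, against 10.8% and 9.77% of genes. Nr1d1 did not differ beyond counting error in that last pair, with a log2 ratio of 0.02 (-0.09 to 0.13). Over the Dbp-phase members the median log2 ratio was 4.05 in the pair without transgene UMIs and 0.51 in the pair with them, where the medians over all genes were 0.26 and 0.10. The pairs that use the same library share its sampling.

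Between the plasmid labels, the CD pair differed far more than the LPD pair. In CD oncogene over CD control, Nfil3, Arntl and Npas2 were at least 2-fold higher, up to a log2 ratio of 2.84 for Npas2, and Tef, Nr1d1, Per3 and Dbp were at least 2-fold lower, down to -5.36 for Dbp, where 4.21% of genes were as much higher and 6.58% as much lower. In LPD oncogene over LPD control, none of the 10 was 2-fold higher, and Cry1, Dbp and Nr1d1 were at least 2-fold lower, with log2 ratios of -1.59, -1.59 and -1.21, where 3.11% of genes were as much higher and 1.6% as much lower. All 5 Dbp-phase members were lower under the oncogene label on both diets, with intervals that excluded 0. The share of all genes that met this rule is not given here, so the count is not read as particular to these members. On CD this label goes against the transgenes, and turned to put the CD library with transgene UMIs over the one without, all 5 were higher, with log2 ratios from 0.89 for Per2 to 5.36 for Dbp, while on LPD the library with transgene UMIs was the lower one.

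**Figure D2:**
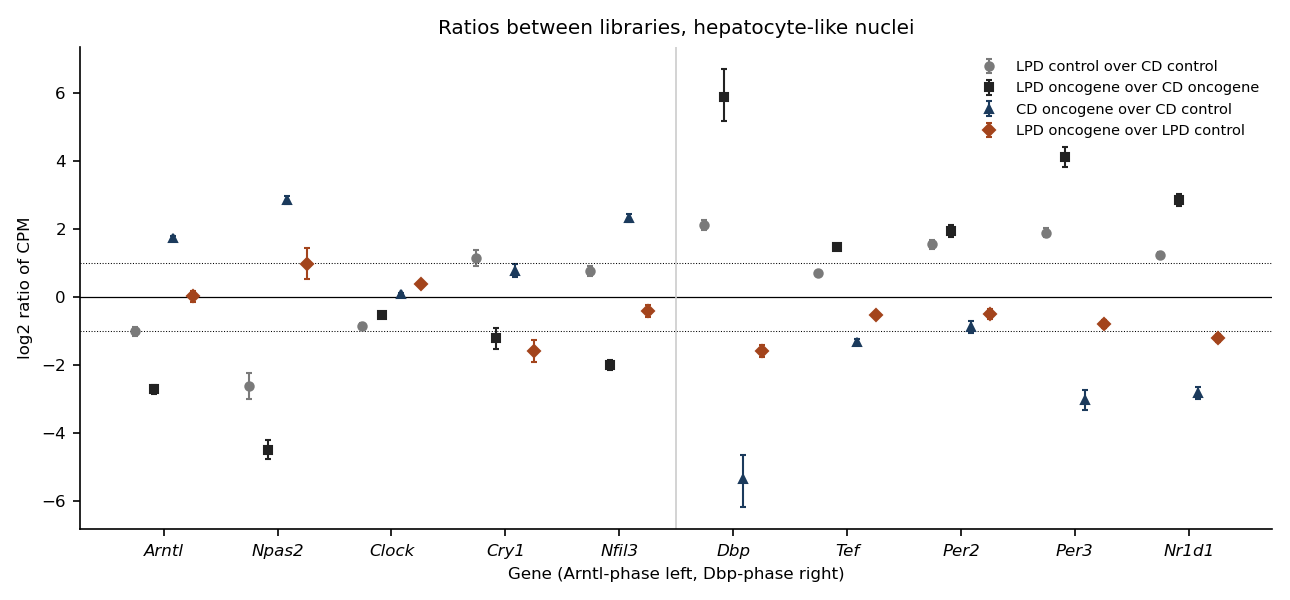
The log2 ratio of CPM between library labels for each clock gene in hepatocyte-like nuclei, with 95% counting intervals; dotted lines mark 2-fold. The 2 crossed pairs are not drawn. Arntl-phase genes are on the left and Dbp-phase genes on the right, and among the pairs drawn Dbp spans from -5.36 (CD oncogene over CD control) to 5.88 (LPD oncogene over CD oncogene).

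A phase index, the mean log2 CPM of the Arntl-phase members minus that of the Dbp-phase members, put the libraries on 1 scale. It was -0.05 (-0.11 to 0.01) in CD control, 4.18 (4.02 to 4.34) in CD oncogene, -2.06 (-2.15 to -1.97) in LPD control and -1.26 (-1.35 to -1.16) in LPD oncogene. The 4 values were separate, and CD oncogene stood 6.24 above LPD control.

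Hepatocytes differ along the liver lobule, from the periportal side, where urea is made, to the pericentral side, where glutamine is made. Nuclei were ranked in each library by the share of pericentral among pericentral and periportal marker UMIs and divided into tertiles of 1272 to 2289 nuclei. Pericentral markers outside the ranking, Cyp1a2, Lgr5 and Axin2, were together at 8.55 to 33.2 CPM in the periportal tertiles and at 182 to 562 CPM in the pericentral tertiles. Periportal markers outside it, Sds, Arg1 and Igfbp2, were together at 903 to 2198 CPM in the periportal tertiles. In the pericentral tertiles they were still at 202, 804, 1163 and 435 CPM. The pericentral tertile began at a share of 87.5%, 33.3%, 28.6% and 60%, so tertiles of the same name differ in zone between libraries. In LPD control the lower limit was a share of 0%, and 43.3% of the nuclei placed lay within 2 percentage points of a limit, so its tertiles are less sharp than those of the other libraries, where this share was 5.999% to 10.8%.

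The order of the libraries was alike along the lobule. In all 3 tertiles, each of the 5 Dbp-phase members was highest in LPD control and lowest in CD oncogene, and Arntl, Npas2 and Nfil3 were highest in CD oncogene. The tertiles are parts of the hepatocyte-like nuclei already described. A share of all genes with these extremes in all 3 is not given here. With Dbp left out for its few UMIs in CD oncogene, the phase index of the other 9 members was 3.19, 3.21 and 3.34 in the periportal, middle and pericentral tertile of CD oncogene, and -2.20, -2.02 and -2.29 in those of LPD control. CD control ranged from -0.41 to -0.22 and LPD oncogene from -1.62 to -1.38.

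Against this common order, 2 members were zonated in the same direction in every library. Per2 was at 22.6, 12.1, 65.2 and 53.1 CPM in the periportal tertiles, and at 15.4, 7.42, 40.4 and 26.0 CPM in the pericentral tertiles. Cry1 was at 9.87, 16.8, 25.0 and 10.1 CPM periportally and at 6.08, 9.85, 10.0 and 3.64 CPM pericentrally. The log2 ratio of pericentral over periportal lay between -1.03 and -0.55 for Per2 and between -1.47 and -0.70 for Cry1, with intervals below 0 in all 4 libraries. Over all genes with at least 50 UMIs, 3.61% were lower pericentrally by this rule, and over those with at least 1000 UMIs, as all members had, 5.61% were.

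The remaining members showed no such common gradient. Dbp and Per3 were lower pericentrally in 3 libraries each, and in CD oncogene, where both were low, their intervals held 0. Nr1d1 went the other way in CD control (log2 ratio 0.39, 0.23 to 0.54) and LPD control (0.28, 0.13 to 0.44) and had intervals that held 0 in the others. Clock was higher pericentrally in CD oncogene and LPD oncogene, Npas2 was lower in the same 2 libraries, Arntl and Nfil3 were each lower in CD control and higher in CD oncogene, and Tef had intervals that held 0 in all 4. With the same limits for every library these counts were equal except for Nfil3, which was then lower in 2 libraries and higher in 0, and the library in which Arntl was lower was then LPD control.

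**Figure D3:**
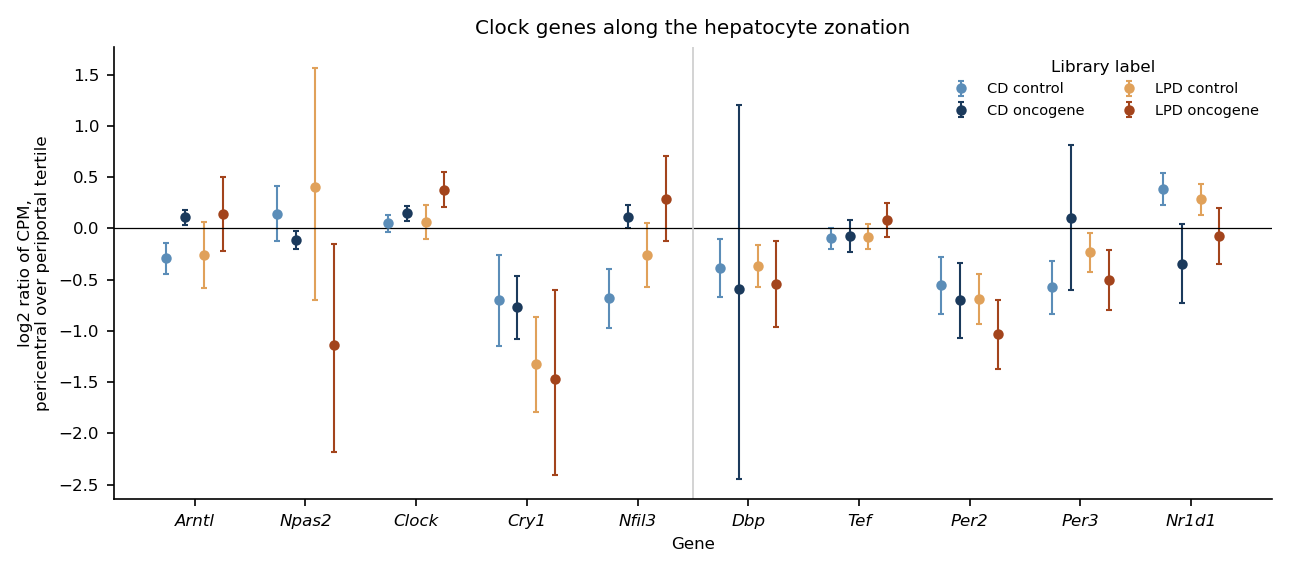
The log2 ratio of CPM between the pericentral and the periportal tertile of hepatocyte-like nuclei for each gene and library label, with 95% counting intervals; values below 0 are higher periportally. Cry1 and Per2 lie below 0 with their whole interval in all 4 libraries.

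Of 10 non-parenchymal types gated by markers, 5 had at least 50 nuclei in each library and were used. These were sinusoidal endothelial nuclei (232 to 688 per library), Kupffer nuclei, the resident macrophages (155 to 661), stellate nuclei, which store retinoids (157 to 483), T or NK nuclei (102 to 268) and B nuclei (92 to 313). In every library and each of the 5 types, all 4 markers kept out of the gate were higher than in hepatocyte-like nuclei. Hepatocyte RNA was plentiful in these gates. The 10 hepatocyte markers stood at a median of 47.6% to 84.7% of their hepatocyte level, and single ones at up to 118%, and 4 hepatocyte markers outside the gates at a median of 37.6% to 83.1%. None of the 4, which include Hnf4a, Cyp2d10 and F9, was at 0. A clock gene at the level this RNA carries is therefore no evidence of the gene in the type, and each level below is set beside the level expected from the median share of the 10 markers. A level was called above it only where its interval lay above the larger of the levels expected from the 10 and from the 4 markers.

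Of 200 combinations of gene, type and library, 20 had an interval above the hepatocyte level and 40 had one above the level expected from hepatocyte RNA, and 81 of the 200 rested on fewer than 10 UMIs. Over all genes with at least 50 UMIs in hepatocyte-like nuclei the shares of such combinations were 15.2% and 28%, and over genes with at least 1000 UMIs 14.7% and 33.2%. At the share of the highest single hepatocyte marker in place of the median, 23 of the 40 remained above. The combinations above the hepatocyte level were all of Arntl, Npas2, Clock and Cry1. Nfil3, Dbp, Tef, Per2, Per3 and Nr1d1 had none.

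Npas2 was above the hepatocyte level in stellate nuclei of all 4 libraries. The level was 191 CPM (177 UMIs) in CD control, against 20.3 CPM in hepatocyte-like nuclei and 14.5 CPM expected from hepatocyte RNA, and 280 CPM (371 UMIs) in CD oncogene, against 146 and 105 CPM. In the LPD libraries it rested on few UMIs, with 11.4 CPM (6 UMIs) in LPD control, against 3.32 and 2.40 CPM, and 44.0 CPM (10 UMIs) in LPD oncogene, against 6.49 and 3.67 CPM. The fold over hepatocyte-like nuclei was thus 9.42, 1.92, 3.42 and 6.78 in the same order, and each log2 interval excluded 0. The order of the libraries was that of hepatocytes, with the 2 LPD libraries not separated, but these levels include hepatocyte RNA. The level minus the expected one was 177 CPM in CD control, 175 CPM in CD oncogene, 8.96 CPM in LPD control and 40.3 CPM in LPD oncogene. In what remained by this estimate, CD oncogene was not above CD control. With the 4 hepatocyte markers outside the gates, the remainders were 179 CPM in CD control and 199 CPM in CD oncogene. The order of these 2 libraries in what remained thus depends on the estimate, and the remainders have no intervals. Of the other types, only T or NK nuclei in LPD control (48.9 CPM, 6 UMIs) had Npas2 above the expected level.

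In lymphocyte nuclei Arntl exceeded the level carried by hepatocyte RNA in 3 libraries and not in CD oncogene. In T or NK nuclei it was at 110 CPM (36 UMIs) in CD control, 156 CPM (80 UMIs) in CD oncogene, 139 CPM (17 UMIs) in LPD control and 105 CPM (37 UMIs) in LPD oncogene. In B nuclei it was at 104, 156, 81.6 and 92.7 CPM. No neighbours in either order were separated. Both types lay above the hepatocyte level in CD control, LPD control and LPD oncogene, and in CD oncogene neither exceeded the 156 and 169 CPM expected from hepatocyte RNA. The level minus the expected one was thus 62.1, -0.415, 119.8 and 90.1 CPM in T or NK nuclei and 52.5, -12.7, 60.5 and 75.1 CPM in B nuclei, so the like totals do not show a like level in the lymphocytes themselves.

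**Figure D4:**
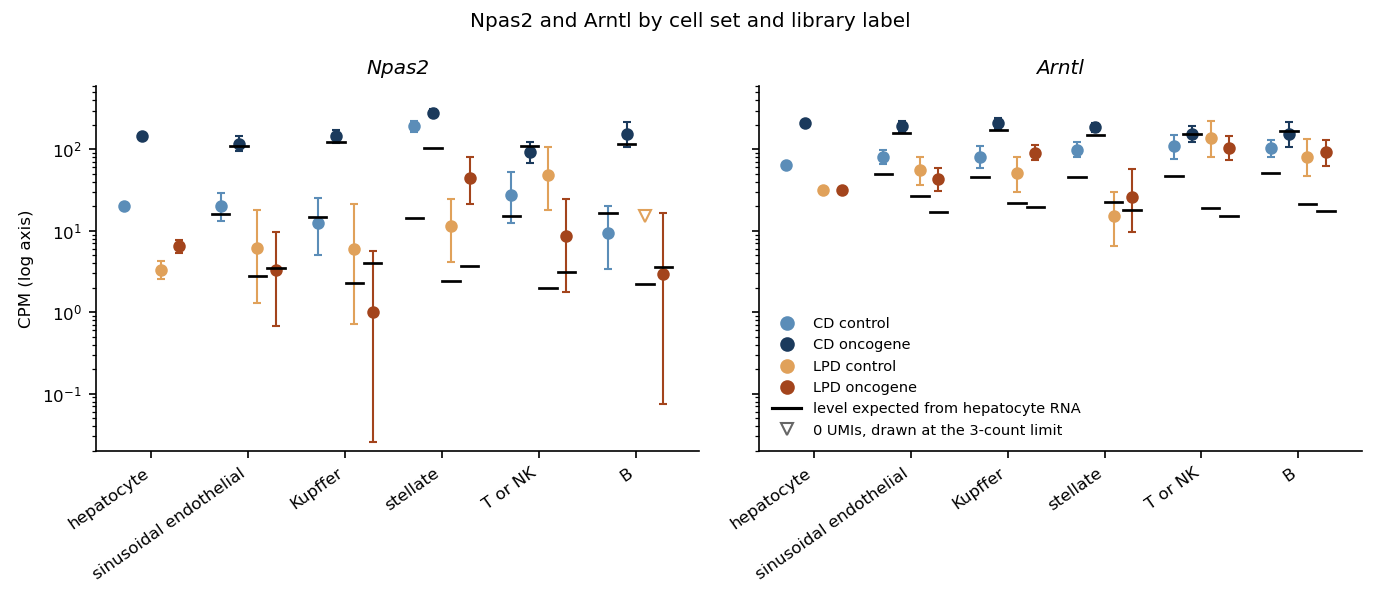
Npas2 and Arntl in CPM on a log axis, by cell set and library label, with 95% counting intervals; black ticks mark the level expected from hepatocyte RNA, and an open triangle a gene with 0 UMIs, at the level of 3 counts. Npas2 in stellate nuclei lies above the tick in all 4 libraries, while Arntl in T or NK and B nuclei lies above it in 3 libraries and at or below it in CD oncogene.

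Other excesses were less even across libraries. Arntl exceeded the expected level in sinusoidal endothelial and Kupffer nuclei in all 4 libraries, and its largest excess there was in Kupffer nuclei of LPD oncogene, at 90.9 CPM (90 UMIs) against 19.7 CPM expected. At the share of the highest single marker, Arntl did not remain above in CD oncogene in either type. In Kupffer nuclei it also did not in LPD control. Clock exceeded it in sinusoidal endothelial nuclei in all 4, at 209, 205, 148 and 171 CPM against 154, 157, 92.6 and 76.3 CPM expected. At the share of the highest single marker the expected levels were 185, 183, 121 and 99.4 CPM, and Clock then remained above in CD control and LPD oncogene only. Cry1 exceeded it in T or NK nuclei of CD control, at 30.5 CPM (10 UMIs), and of LPD oncogene, at 22.7 CPM (8 UMIs), and had 0 UMIs in those of LPD control, where 3 counts would be 24.5 CPM. Of the 100 combinations of the Dbp-phase members, only Dbp in B nuclei of CD control (26.4 CPM against 13.3 CPM) and Per3 in stellate nuclei of CD oncogene (5.29 CPM against 1.98 CPM, 7 UMIs) exceeded it. Neither remained above at the share of the highest single marker.

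As summed UMIs, the balance of the 2 arms had the same extremes in every set. The log2 ratio of summed Arntl-phase to summed Dbp-phase UMIs was 0.38, 3.24, -1.47 and -0.53 in hepatocyte-like nuclei. In the 5 non-parenchymal types it was highest in CD oncogene, from 3.03 in Kupffer to 4.38 in B nuclei, with an interval above those of the other 3 libraries in each. It was lowest in LPD control in all 5, from -1.44 in stellate to 0.14 in T or NK nuclei, with an interval below those of the other libraries in all but T or NK. Hepatocyte RNA of the same library adds to each of these values. With that RNA subtracted by the gate markers the ratio could be computed for none of the 5, because the remaining Dbp-phase or Arntl-phase sum was not above 0, and with the check markers it could be computed for Kupffer and T or NK nuclei only, where CD oncogene then differed from LPD control by 0.11 and -0.73. The order in these gates beyond hepatocyte RNA was thus not established.

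**Figure D5:**
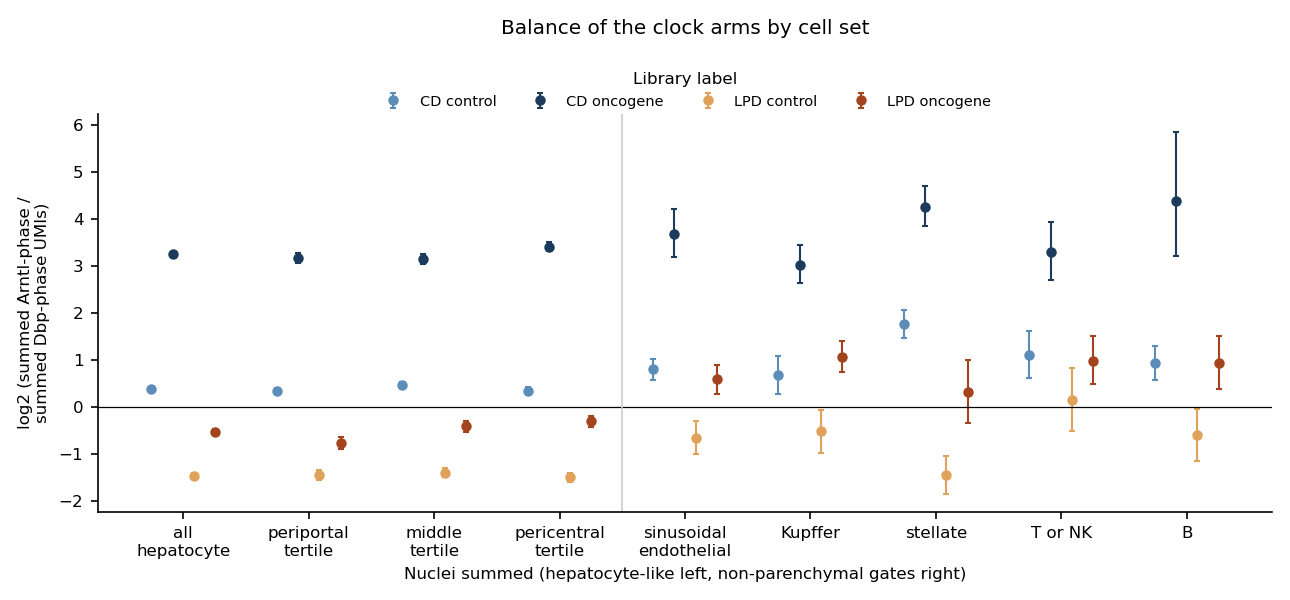
The log2 ratio of summed Arntl-phase to summed Dbp-phase UMIs in all hepatocyte-like nuclei, in their tertiles and in 5 non-parenchymal gates, by library label, with 95% counting intervals. CD oncogene is highest and LPD control lowest in every set; the values of the gates on the right include hepatocyte RNA.

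The 13 other clock genes of a list chosen by function were read in hepatocyte-like nuclei. In LPD control over CD control, 4 were at least 2-fold higher, among them Per1, Ciart and Hlf, and none was as much lower. Over all genes, 9.39% were as much higher and 10.1% as much lower. The median log2 ratio was 0.60 over the list and 0.12 over all genes. Per1, which also responds directly to glucocorticoids and cAMP, was at 1.34 CPM in CD control, 2.43 CPM in CD oncogene, 53.3 CPM in LPD control and 42.0 CPM in LPD oncogene. It followed the diet label and not the Dbp-phase order, since it was lowest in CD control. Nr1d2, the paralog of Nr1d1, was at 135, 67.4, 140 and 118 CPM, a far narrower range than that of Nr1d1. Hlf, the third PAR bZIP factor, was at 91.8, 93.3, 239 and 215 CPM, so that it too followed the diet label. The reverse order of Arntl was found for Bhlhe40, Ciart, Cry2 and Csnk1d, and the order of Arntl for none of the 13. Rora, an activator at ROREs, ranged only from 546 to 702 CPM.

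The genes with the pattern most like that of Arntl, by root mean square distance of library-centred log2 CPM over the 4 libraries among 10726 genes, were 2310015A10Rik, Gm3734, 2610035D17Rik, Cyp3a11 and Scd1, at distances of 0.16 to 0.22. Scd1, a fatty acid desaturase, was at 365, 848, 183 and 178 CPM. Of the other members, Nfil3 was nearest to Arntl, at 0.68, but only at rank 172. Clock was at rank 429, Npas2 at 1245 and Cry1 at 2925. The genes most like Dbp were Per3, Nr1d1, Wee1, Igf2bp2 and Tspan4, at wider distances of 1.01 to 1.599, and Wee1, a cell cycle kinase, was at 9.56, 1.63, 16.5 and 14.96 CPM. The distances to Dbp rest in part on its 16 UMIs in CD oncogene.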

How the data were processed

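Single-nucleus libraries (Chromium 3' chemistry) of mouse liver, 4 in all, were compared. The values are raw UMI counts per gene and nucleus as deposited by the authors, made with Cell Ranger 9.0.1 per the file headers on mm10 with human c-MET and CTNNB1 added. Seurat 5 is named in the submitters' processing notes, and whether intronic reads were counted is not given in the sources used here. The members and all gene lists were chosen with earlier results of these data known. Nuclei with 200 to 7000 genes and at most 21% mitochondrial UMIs were kept (9825 to 12552 per library). Non-parenchymal gates needed 3 different markers of a type and 2 more than of any other, tertiles needed 5 zonation UMIs per nucleus, and these thresholds and the hepatocyte gate were set after the counts had been seen. Of the nuclei kept, 74.4% to 85.2% fell in a gate. No doublet caller was run. Nuclei with 3 markers of several types were left out only where no type led by 2 markers. Pairs of libraries shared 18 to 40 barcodes. Most hepatocyte-like nuclei carried 1 marker of another type, so deep nuclei were more often left out. Levels are CPM of summed UMIs with exact Poisson intervals, and ratios have exact conditional intervals, both at 95% and for counting error only. Shares of genes past 2-fold used genes with at least 50 UMIs in the pair. Intervals and the 2-fold rule were checked on simulated Poisson counts. These hold no spread between nuclei or mice, so the check covers the calculation only. Named genes were the members, the list genes behind a count, and the 5 genes nearest to Arntl and to Dbp with at least 50 UMIs in each library. Values of some single list genes are not reported here. Tools were Python 3.11.15, SciPy 1.17.1 and, for the TMM (trimmed mean of M values) alternative, edgeR 4.0.16. Alternatives covered filters, scaling, depth, gates and zone limits.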

Additional observations from a re-analysis of the deposited data

Results flagged for a closer look

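For 2 clock genes the ratio of the oncogene to the control label in hepatocyte-like nuclei pointed opposite ways on the 2 diets, with counting intervals that excluded 0 in each. For Cry1, the repressor that acts with the PER proteins, the log2 ratio was 0.77 on CD and -1.59 on LPD. For Nfil3, the D-box repressor, it was 2.32 on CD and -0.42 on LPD. Each rests on 1 library per group and the difference between diets was not tested. The CD labels go against the transgene UMIs, and with the CD library that holds transgene UMIs over the one that does not, the CD ratios are -0.77 for Cry1 and -2.32 for Nfil3, of the same sign as on LPD.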

How the results depend on the processing

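No paired analysis was possible because each group has 1 library. Of 167 alternative values of the summaries, 150 kept their direction and size, and in all 9 alternative settings for hepatocyte-like nuclei every Dbp-phase member was highest in LPD control and lowest in CD oncogene. The full Dbp-phase order held for all 5 in 3 of the 9 and changed in 6, in 5 of them for Nr1d1. The phase index difference between CD oncogene and LPD control, 6.24, became 5.65 with 1 CPM added and 5.96 in nuclei of 1000 to 3000 UMIs, and could not be computed in nuclei of at least 2000 UMIs without a marker of another type, where Dbp had 0 UMIs in CD oncogene. The number of members in the order of Arntl, 3 with Arntl itself, was 1 with the mean CPM of single nuclei and in nuclei of 1000 to 3000 UMIs, where the LPD libraries changed places for Arntl while Npas2 and Clock kept their order. Counts of members past 2-fold moved by 1 or 2. In LPD oncogene over CD control, 0 were higher with TMM factors or in the nuclei of at least 2000 UMIs, and 1 was lower after thinning to 1000 UMIs or without the 8% deepest nuclei. In LPD control over CD control, 1 was lower with the mean CPM of single nuclei, without the 8% deepest nuclei, in the nuclei of at least 2000 UMIs and in those of 1000 to 3000 UMIs. In LPD oncogene over LPD control, 1 was higher with the mean CPM, after thinning and in nuclei of 1000 to 3000 UMIs. Of single genes, Tef in LPD oncogene over CD control turned to -0.0172 after thinning, and in the nuclei of at least 2000 UMIs Dbp in that pair turned to -0.28 and Clock in CD oncogene over CD control to -0.0278. With hepatocyte RNA subtracted by the check markers, the summed balance of CD oncogene against LPD control moved to 0.11 in Kupffer nuclei and turned to -0.73 in T or NK nuclei, and it could not be computed in the others. The causes were not tested. Of 24 shares of genes past 2-fold, 7 moved by over 1.5 times, all with a minimum of 500 UMIs.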

Other observations

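Lists of other rhythmic or state-linked liver genes, read in the same hepatocyte-like nuclei, did not all follow the Dbp-phase order. Of 9 clock output genes, Wee1 had that order, and Noct, which encodes nocturnin, was at 18.4 CPM in CD control, 35.7 CPM in CD oncogene, 145 CPM in LPD control and 127 CPM in LPD oncogene. Alas1, the first enzyme of haem synthesis, was highest in LPD oncogene, at 1691 CPM against 216 to 402 CPM in the other 3 libraries. Elovl3, a fatty acid elongase, was highest in CD oncogene, at 116 CPM against 14.0 to 33.9 CPM. In LPD oncogene over CD oncogene, 5 of the 9 were at least 2-fold higher and 2 at least 2-fold lower, against 13% and 8.08% of genes.

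Of 11 fasting and glucocorticoid-linked genes, 8 were at least 2-fold higher and 1 at least 2-fold lower in LPD control than in CD control, where 9.39% and 10.1% of genes were. For LPD oncogene over CD oncogene 4 were higher and G6pc lower, against 13% and 8.08% of genes, and in CD oncogene over CD control Pck1, G6pc and Igfbp1 were higher, against 4.21%. Pck1, the gluconeogenic enzyme gene, was at 74.4 CPM in CD control and at 1261, 2389 and 1178 CPM in CD oncogene, LPD control and LPD oncogene. Fkbp5, a glucocorticoid target, was at 47.7, 31.8, 230 and 869 CPM in CD control, then CD oncogene, then the LPD control and oncogene libraries. Of 6 temperature-linked genes, Hsph1 and Hsp90aa1 were at least 2-fold higher in each LPD library than in each CD library. Cirbp, the cold-inducible RNA-binding protein gene, was at 21.6, 18.6, 38.8 and 28.6 CPM. Rbm3, of the same list, did not follow the diet label. It was at 65.0, 33.8, 55.7 and 56.2 CPM, highest in CD control and lowest in CD oncogene. Over all genes, 9.39% to 13% were at least 2-fold higher in a single LPD over CD pair. A share for all of these pairs at once is not given here. Hsph1, Hsp90aa1, Cirbp and Fkbp5 were higher in both LPD libraries than in both CD libraries, while Pck1 in CD oncogene lay above LPD oncogene. The part of these genes in the clock differences was not tested.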
